A study of Mus musculus with 13 samples.

Results

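The genes described here are 33 transporters and transport receptors of the blood-brain barrier (BBB), the endothelial wall of brain vessels with its pericytes and astrocyte end-feet. They were taken by symbol from the count table, which listed 47643 genes. Each of the 33 symbols matched 1 row, and all 33 were among the 17285 genes that passed the filter on low counts. By role they are 20 nutrient carriers (3 for glucose and monocarboxylates, 8 for amino acids, 4 for vitamins, 3 for metals and 2 for nucleosides and ions), 4 organic anion carriers, 5 ABC pumps and 4 receptors.

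Brain endothelial cells are joined by tight junctions, so that polar nutrients enter the brain through carriers of the SLC family and not between cells. Organic anion carriers move hormones, conjugated metabolites and many drugs across the endothelium, while ABC pumps use ATP to return lipophilic compounds to the blood. Receptors such as *Lrp1* and *Insr* bind lipoproteins or hormones, and several of them carry their ligand through the cell.

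RNA came from the isolated neurovasculature of 13 male CD1 mice aged 8 to 10 weeks, with 1 library per mouse. The 4 sham-vehicle mice had no lipopolysaccharide (LPS), and the series text names PBS as its control. The 5 LPS-vehicle mice received LPS of Salmonella enterica typhimurium intraperitoneally at 3 mg/kg at 0, 6 and 24 h with the vehicle of DMSO, Cremophor and saline. The 4 LPS-CPD-4645 mice received the same LPS and, 30 min after each dose by the labels, 10 mg/kg of CPD-4645 subcutaneously. A longer delay is given elsewhere in the study's text, so the exact interval is uncertain. CPD-4645 is a covalent hexafluoroisopropyl carbamate inhibitor of monoacylglycerol lipase (MAGL), the enzyme that hydrolyses the endocannabinoid 2-AG. Tissue was taken at 28 h from brains that were not perfused, so that blood cells could remain in the vessels. There was no sham group given CPD-4645, and the comparison of LPS-CPD-4645 with LPS-vehicle mice therefore describes the inhibitor only on top of LPS.

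The shallowest library held 7813559 counts (LPS-vehicle mouse 3), the next 12548404 (LPS-CPD-4645 mouse 1) and the deepest 55133373, around a median of 26989885. Over the 22 pairs of replicates, squared differences were 9.26 to 56.5 times what counting error gives, so no library was a copy of another. The material was labelled neurovasculature, yet the 10 neuronal markers summed to 10200 to 11800 CPM (counts scaled to library size) in sham-vehicle mice and the 12 endothelial markers to 294 to 453 CPM. The tight junction gene *Cldn5* reached 75.9 CPM per kb of exon in sham-vehicle mice and the synaptic gene *Snap25* reached 1550 CPM per kb. Vascular cells were thus present beside much neuronal and glial RNA, and a member also expressed outside vessels was measured in all of these cells together. In such bulk tissue, fewer cells of a type and less RNA per cell cannot be told apart.

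The summed endothelial markers ran from 368 to 638 CPM in LPS-vehicle mice and from 355 to 464 CPM in LPS-CPD-4645 mice. By edgeR, 4 of the 12 were higher and 1 lower after LPS, and 5 were lower and 0 higher in LPS-CPD-4645 than in LPS-vehicle mice. The lowest endothelial sum of the sham group was that of mouse 4, at 294 CPM, and the lowest of the LPS-vehicle group was that of mouse 3, at 368 CPM. Sham-vehicle mouse 4 also had the lowest level of its group for 19 of the 33 members, and LPS-vehicle mouse 3 for 21 of 33. Mitochondrial genes took 12.7% of the counts of sham-vehicle mouse 4 and 6.47% to 8.92% in the other sham mice, against 4.84% to 7.05% in LPS-vehicle and 3.97% to 8.17% in LPS-CPD-4645 mice. LPS-vehicle mouse 3 also stood apart on the third principal component of all genes tested, at -67.99 where the other mice lay between -13.28 and 28.96. Neutrophil markers rose from 3.01 to 7.70 CPM in sham-vehicle mice to 71.5 to 293 CPM in LPS-vehicle mice and stood at 11.9 to 32.1 CPM in LPS-CPD-4645 mice, with 9 of 9 tested markers higher after LPS and 9 of 9 lower with CPD-4645 than without. The part of these lists and of the mitochondrial share in the transporter results was not tested.

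**Figure D1:**
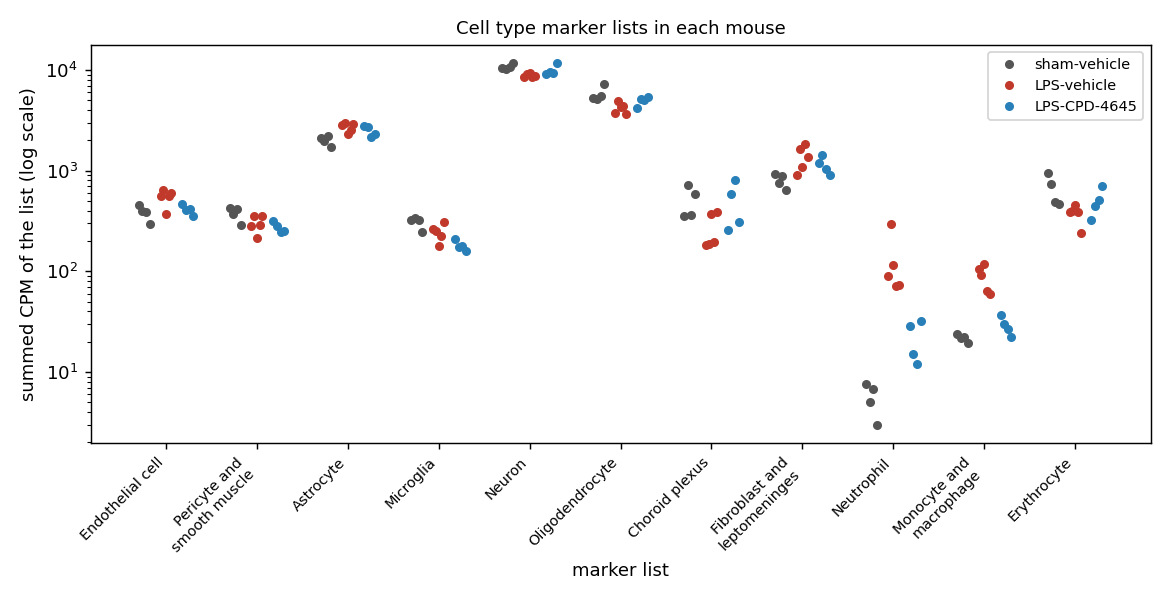
Summed CPM of each cell type marker list (log axis) in each mouse, with sham-vehicle in grey, LPS-vehicle in red and LPS-CPD-4645 in blue. The neuronal list is the highest in every mouse, the endothelial list between 294 and 638 CPM, and the neutrophil list separates sham-vehicle mice, at no more than 7.70 CPM, from LPS-vehicle mice.

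To show what lies directly before these genes, the 200 bases before the start of 4 members are printed from the RefSeq promoter table (GRCm38.p6), 5' to 3' on the strand of the gene, with CG dinucleotides in capitals. *Slc22a8* and *Slco1c1* were chosen as organic anion carriers that were low in every LPS mouse. *Slc16a1* stands for carriers that were lower after LPS and not after LPS with CPD-4645, and *Abca1* for a pump that was higher after LPS.
Slc22a8: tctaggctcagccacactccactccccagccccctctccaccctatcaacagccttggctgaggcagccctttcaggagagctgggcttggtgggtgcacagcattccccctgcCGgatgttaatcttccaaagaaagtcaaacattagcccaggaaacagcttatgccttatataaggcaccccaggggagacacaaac
Slco1c1: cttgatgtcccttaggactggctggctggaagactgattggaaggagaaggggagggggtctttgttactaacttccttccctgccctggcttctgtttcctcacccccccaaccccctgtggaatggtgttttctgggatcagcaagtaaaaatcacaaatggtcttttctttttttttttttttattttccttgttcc
Slc16a1: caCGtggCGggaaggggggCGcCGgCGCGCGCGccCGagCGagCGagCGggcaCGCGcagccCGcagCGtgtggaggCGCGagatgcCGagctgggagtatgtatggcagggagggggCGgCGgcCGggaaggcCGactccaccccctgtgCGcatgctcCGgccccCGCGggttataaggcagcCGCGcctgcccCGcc
Abca1: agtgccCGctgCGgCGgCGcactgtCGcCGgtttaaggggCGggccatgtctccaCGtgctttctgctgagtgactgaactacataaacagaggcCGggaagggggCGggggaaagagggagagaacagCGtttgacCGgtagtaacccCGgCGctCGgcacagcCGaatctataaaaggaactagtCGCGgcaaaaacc

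The *Slc22a8* window is chr19:8592982-8593181 on the plus strand and lies in an intron of the GENCODE M21 gene, which starts at 8591254 in that annotation. The *Slco1c1* window is chr6:141524154-141524353 (plus strand), the *Slc16a1* window chr3:104638464-104638663 (plus strand) and the *Abca1* window chr4:53159896-53160095 (minus strand), and all 3 lie just outside the annotated gene. The *Slc22a8* window held 1 CG, *Slco1c1* 0, *Slc16a1* 30 and *Abca1* 18. RefSeq windows were found for 26 members. Where a gene had several windows, the one richest in CG was used. The 9 members with a window that were at least 2-fold lower in any comparison had a median of 1.0 CG per window (0 to 8), the 17 other members a median of 19.0 (2 to 34), and the 27025 genes with a window a median of 5.0 (0 to 47). This grouping used the fold changes reported below, so it is given as a description with no test. The *Abcb1a* window, with 0 CG, ends at chr5:8567090, far before the GENCODE start of the gene at 8660077. Members with more windows, such as *Slc29a1* with 8, had more sequence from which the richest was taken. Windows were not found for *Slc7a5*, *Slc38a3*, *Slc6a6*, *Slc52a3*, *Slc12a2*, *Abcc1* and *Insr*.

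In sham-vehicle mice the members covered a wide range of levels per kb of exon. *Slc2a1*, which encodes the glucose carrier GLUT1, was highest at 58.4 CPM per kb, followed by *Slc3a2*, the heavy chain of several amino acid carriers, at 42.5 CPM per kb. *Slc38a2* stood at 35.9, *Slc12a2* at 26.8, *Slc6a9* at 25.6, *Slc38a3* at 25.5 and *Slc39a10* at 25.2 CPM per kb. Among the other classes the leading members were *Slco1c1* at 20.1 CPM per kb for organic anion carriers, *Lrp1* at 15.5 CPM per kb for receptors, *Slc5a6* at 8.67 CPM per kb for vitamin carriers and *Abcb1a* at 4.42 CPM per kb for ABC pumps. *Ager* was lowest at 1.01 CPM per kb, and its libraries held 21 to 54 counts in sham-vehicle mice.

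After LPS, the 33 members changed more often downwards than upwards. Of the 33 members, 11 fell and 5 rose in LPS-vehicle against sham-vehicle mice at an adjusted p of at most 0.05 (edgeR quasi-likelihood test, Benjamini-Hochberg adjustment over all 17285 genes, as for every call below). These are 33.3% of the members against 8.86% of all genes for falls, and 15.2% against 11.1% for rises. At least 2-fold changes were called for 5 falls, or 15.2% of members where all genes gave 0.995%, and for 2 rises, or 6.06% where all genes gave 4.68%. With each library left out, the 2-fold falls ran from 4 to 6 and the 2-fold rises from 0 to 2. The median log2 fold change was -0.36 over the members and 0.00 over all genes tested. Among the 51 other listed transporters tested, 8 rose and 4 fell, and their median was 0.04. When libraries were scaled to the endothelial markers in place of TMM, 7 members were lower and 1 was higher, and the median of all genes moved to -0.10. Calls became fewer over all genes as well, at 1.94% lower and 4.20% higher, beside 21.2% and 3.03% of members.

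Against LPS-vehicle mice, 7 members rose and 7 fell in LPS-CPD-4645 mice. Each is 21.2% of members, near the 14.1% of all genes called higher and 16.4% called lower, so the counts are not a result about the members. Changes of at least 2-fold were called for *Ager*, which rose, and for *Slc38a5* and *Slco2b1*, which fell, that is 3.03% of members higher against 1.70% of all genes and 6.06% lower against 4.19%. The median over members was 0.01 and over all genes -0.02. With endothelial marker scaling 3 members were higher and 2 lower (9.09% and 6.06%), beside 5.05% and 1.83% of all genes, and the median of all genes was 0.23.

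Compared with sham-vehicle mice, LPS-CPD-4645 mice had 12 members lower and 7 higher. That is 36.4% of members against 19.3% of all genes for falls and 21.2% against 19.5% for rises, so the share of rises was near that of all genes. At least 2-fold falls numbered 8, or 24.2% of members beside 4.98% of all genes, and 2-fold rises 2, or 6.06% beside 6.11%. The median over the members was -0.10 and over all genes -0.01. Endothelial marker scaling gave 9 lower and 3 higher (27.3% and 9.09%), beside 3.78% and 9.08% of all genes, with the median of all genes at 0.14. Over the 3 comparisons this scaling ended 26 member calls, of which 15 had a log2 fold change at least as large as under TMM and 11 a smaller one, so each lost call is given below with its value. The 3 comparisons share their groups, so they are not independent of each other.

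**Figure D2:**
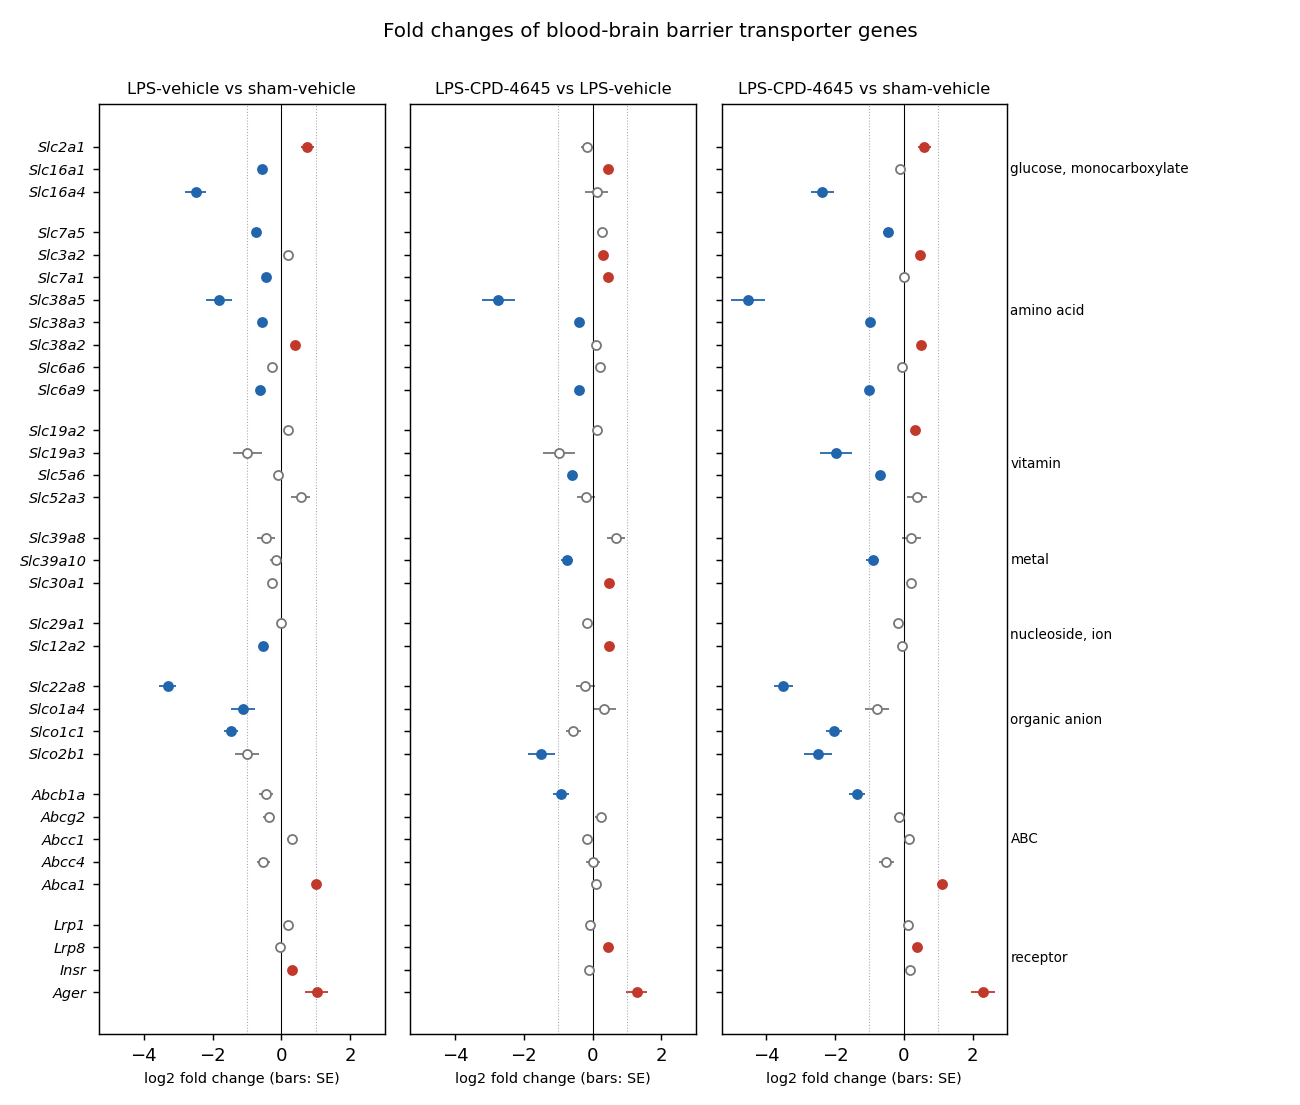
Log2 fold change of each member (point) with its standard error (bar) in the 3 comparisons, ordered by class; filled red points are called higher, filled blue points called lower at an adjusted p of at most 0.05, open points are not called, and dotted lines mark 2-fold. Organic anion carriers lie to the left of 0 in both comparisons with sham-vehicle, *Slc38a5* is the lowest point under LPS with CPD-4645 at -4.54, and *Ager* the highest at 2.30.

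**Figure D3:**
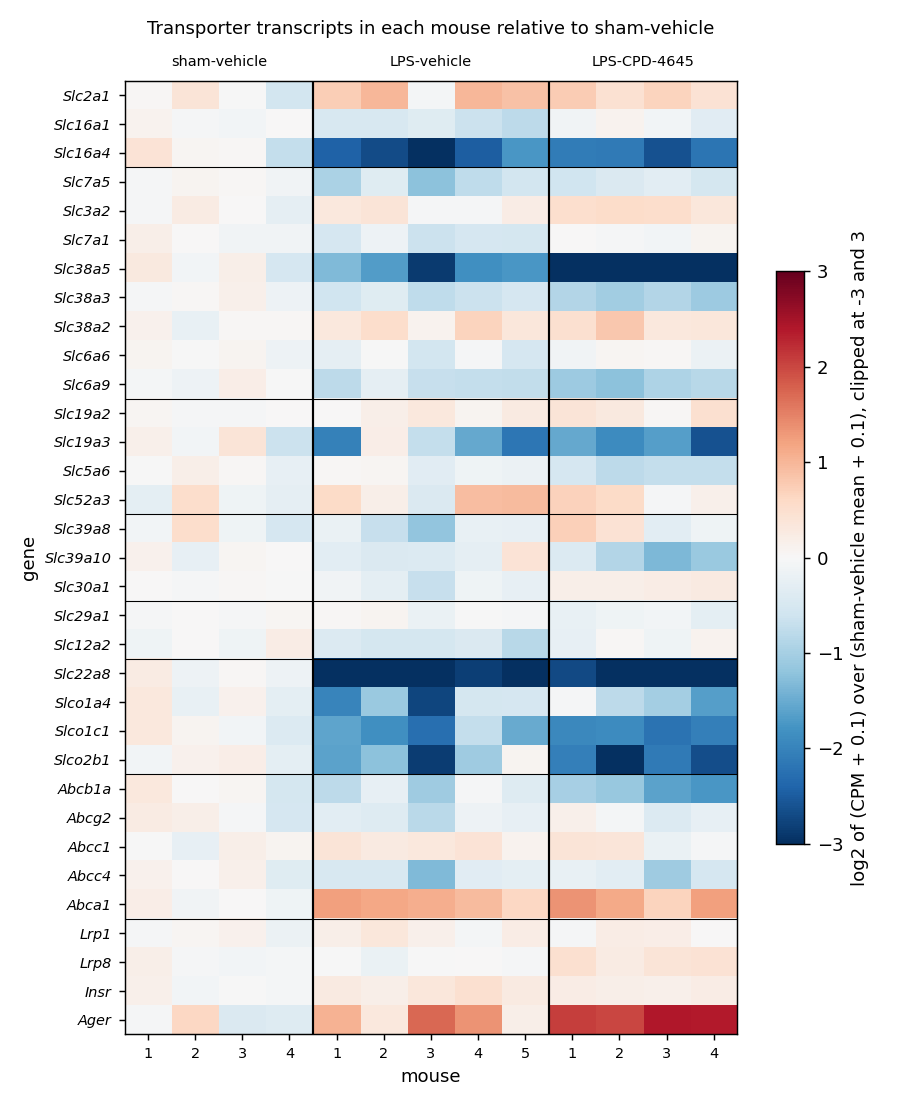
Heat map of log2 ratios in each mouse, (CPM + 0.1) over (sham-vehicle mean + 0.1), with members in rows by class, mice in columns by group, and colours limited to the range from -3 to 3. *Slc22a8*, *Slc16a4* and *Slco1c1* are below the sham-vehicle mean in each of the 9 LPS mice, and *Abca1* is above it in all 9.

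Against sham-vehicle mice, the organic anion carriers had the lowest median of the classes. In LPS-vehicle mice 3 of 4 fell, all at least 2-fold, beside 0.995% of all genes, and the class median was -1.29. In LPS-CPD-4645 mice against sham 3 of 4 were at least 2-fold lower, beside 4.98% of all genes, with a median of -2.26. Against LPS-vehicle mice 1 of 4 was lower, beside 16.4% of all genes, with a median of -0.38.

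*Slc22a8* encodes the organic anion transporter OAT3, which clears anionic metabolites and drugs. Its CPM were 34.2, 26, 29.5 and 26.2 in sham-vehicle mice, 2.99, 2.26, 1.26, 4 and 3.58 in the LPS-vehicle group, and 4.35, 1.96, 1.96 and 2.35 in LPS-CPD-4645 mice. All 9 LPS mice lay far below the lowest sham mouse, and the LPS groups overlapped. The level was 9.84-fold lower in LPS-vehicle than in sham-vehicle mice (log2 fold change -3.30, SE 0.25, edgeR adjusted p = 5.4e-08). With CPD-4645 it was 11.3-fold lower than in sham (log2 fold change -3.50, SE 0.28, edgeR adjusted p = 6.1e-08), and the difference from LPS-vehicle mice was -0.21 on the log2 scale with a 95% interval from -0.77 to 0.35. Without the 2 shallowest libraries that last difference was -0.61 (edgeR adjusted p = 0.036), and over all alternatives it ran from -0.61 to 0.2.

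*Slco1c1* encodes OATP1C1, the carrier of thyroxine into the brain. Sham-vehicle mice had 82.2, 69.7, 62.2 and 49.4 CPM, LPS-vehicle mice 21.9, 18.4, 13.6, 40.3 and 23.1 CPM, and LPS-CPD-4645 mice 17.2, 17.7, 14.2 and 15.7 CPM. No LPS mouse reached the sham range, with LPS-vehicle mouse 4 nearest to it. The fall was 2.77-fold after LPS (log2 fold change -1.47, SE 0.21, edgeR adjusted p = 6.8e-05) and 4.08-fold after LPS with CPD-4645 (log2 fold change -2.03, SE 0.24, edgeR adjusted p = 3.7e-06). Between the LPS groups the difference was -0.56 (SE 0.22, edgeR adjusted p = 0.064), and over the alternatives it ran from -0.71 to -0.21. It passed the threshold without LPS-vehicle mouse 2 (adjusted p = 0.04), without mouse 3 (adjusted p = 0.017), with no filter on low counts (adjusted p = 0.027) and without the 2 shallowest libraries (-0.71, adjusted p = 0.028).

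For *Slco1a4*, an organic anion carrier with a broad range of substrates, the groups were less clearly apart. Its CPM were 80.1, 55.5, 71.2 and 52.5 in sham-vehicle mice, 16.3, 30.0, 9.45, 44.6 and 45.6 in the LPS-vehicle group, and 63.0, 37.3, 32.1 and 20.6 in LPS-CPD-4645 mice. Values of the LPS-vehicle group were all below sham, and LPS-CPD-4645 mouse 1 lay within the sham range. The level was 2.17-fold lower after LPS (log2 fold change -1.12, SE 0.34, edgeR adjusted p = 0.025), a call lost without sham-vehicle mouse 1 (0.077), sham-vehicle mouse 3 (0.063) or LPS-vehicle mouse 1 (0.066), and in DESeq2 (adjusted p = 0.053). Under CPD-4645 the difference from sham was -0.78 (SE 0.36, edgeR adjusted p = 0.096) and passed without LPS-CPD-4645 mouse 1 (-1.10, adjusted p = 0.027) or without LPS-vehicle mouse 3 (adjusted p = 0.046). It also passed by limma-voom (-0.95, adjusted p = 0.023), by voomWithQualityWeights (-0.96, adjusted p = 0.011), with no filter on low counts (adjusted p = 0.034), with only the groups compared (adjusted p = 0.021) and without the 2 shallowest libraries (-1.11, adjusted p = 0.0059).

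*Slco2b1* encodes OATP2B1, which takes up steroid conjugates and drugs. Its CPM were 17.7, 20.4, 21.7 and 15.3 in sham-vehicle mice, 6.15, 7.98, 2.52, 8.95 and 19.9 in the LPS-vehicle group, and 4.43, 1.92, 4.25 and 2.90 in LPS-CPD-4645 mice. Mouse 5 of the LPS-vehicle group lay inside the sham range while the other 4 lay below it, and all LPS-CPD-4645 mice were below sham. After LPS the difference was -1.01 (SE 0.35, edgeR adjusted p = 0.051), and without LPS-vehicle mouse 5 it was -1.49 (adjusted p = 0.0011). It also passed by limma-voom (-1.08, adjusted p = 0.0083), by voomWithQualityWeights (-1.07, adjusted p = 0.0083), with no filter on low counts (adjusted p = 0.013), with a mean count of at least 50 (adjusted p = 0.049), with the replicate number as a block (-1.50, adjusted p = 0.0035) and without LPS-CPD-4645 mouse 2 (adjusted p = 0.049). *Slco2b1* fell 2.82-fold from LPS-vehicle to LPS-CPD-4645 mice (log2 fold change -1.49, SE 0.39, edgeR adjusted p = 0.0073) and was 5.66-fold below sham (log2 fold change -2.50, SE 0.41, edgeR adjusted p = 0.00011). The gene shares exon sequence with the antisense genes *Gm15635* and *Gm34280*. The strand setting of the counts is not stated, so their reads could have been counted with it. Within the LPS-vehicle group the microglial markers did not share 1 order of mice. *Tmem119* was highest in mouse 5 and lowest in mouse 3, as *Slco2b1* was (11, 13.2, 3.65, 10.2 and 28 CPM), whereas *Aif1* was highest in mouse 3 (11.3, 10.8, 12.4, 6.90 and 8.58 CPM). The 10 microglial markers summed to 246 to 337 CPM in sham-vehicle, 178 to 310 CPM in LPS-vehicle and 159 to 211 CPM in LPS-CPD-4645 mice, and 9 of the 10 were lower in LPS-CPD-4645 than in sham-vehicle mice. Their part in the *Slco2b1* result was not tested.

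Some organic anion carriers are also made in the choroid plexus. The 10 choroid plexus markers summed to 356 to 726 CPM in sham-vehicle, 182 to 390 in LPS-vehicle and 255 to 799 CPM in LPS-CPD-4645 mice, and *Ttr* averaged 463, 226 and 451 CPM of it. Of these markers 2 were lower after LPS, 2 were higher with CPD-4645 than without, and 2 were lower in LPS-CPD-4645 than in sham-vehicle mice. The fibroblast and leptomeningeal list holds 3 carriers. *Slc22a6* averaged 4.74 CPM in sham-vehicle, 1.17 in LPS-vehicle and 0.510 CPM in LPS-CPD-4645 mice and was lower after LPS (edgeR adjusted p = 0.0018). *Slc47a1* averaged 3.41, 0.727 and 0.403 CPM in the same order and was lower after LPS (edgeR adjusted p = 0.0011). *Slc6a13* averaged 6.72, 4.56 and 3.19 CPM, overlapped with sham and was not called after LPS (edgeR adjusted p = 0.18), and was lower than sham under CPD-4645 (adjusted p = 0.0071). Of this list 5 of 10 were lower and 2 higher after LPS, while its summed level was 639 to 917 CPM in sham-vehicle, 911 to 1830 CPM in LPS-vehicle and 908 to 1440 CPM in LPS-CPD-4645 mice. Most of that sum was *Ptgds*, at 507 to 775, 783 to 1690 and 798 to 1280 CPM in the same order. The part of these lists in the result was not tested. With libraries scaled to endothelial markers, the calls of *Slc22a8*, *Slco1c1* and *Slco1a4* after LPS held, and *Slco2b1* passed as well (-1.26, edgeR adjusted p = 0.0035).

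**Figure D4:**
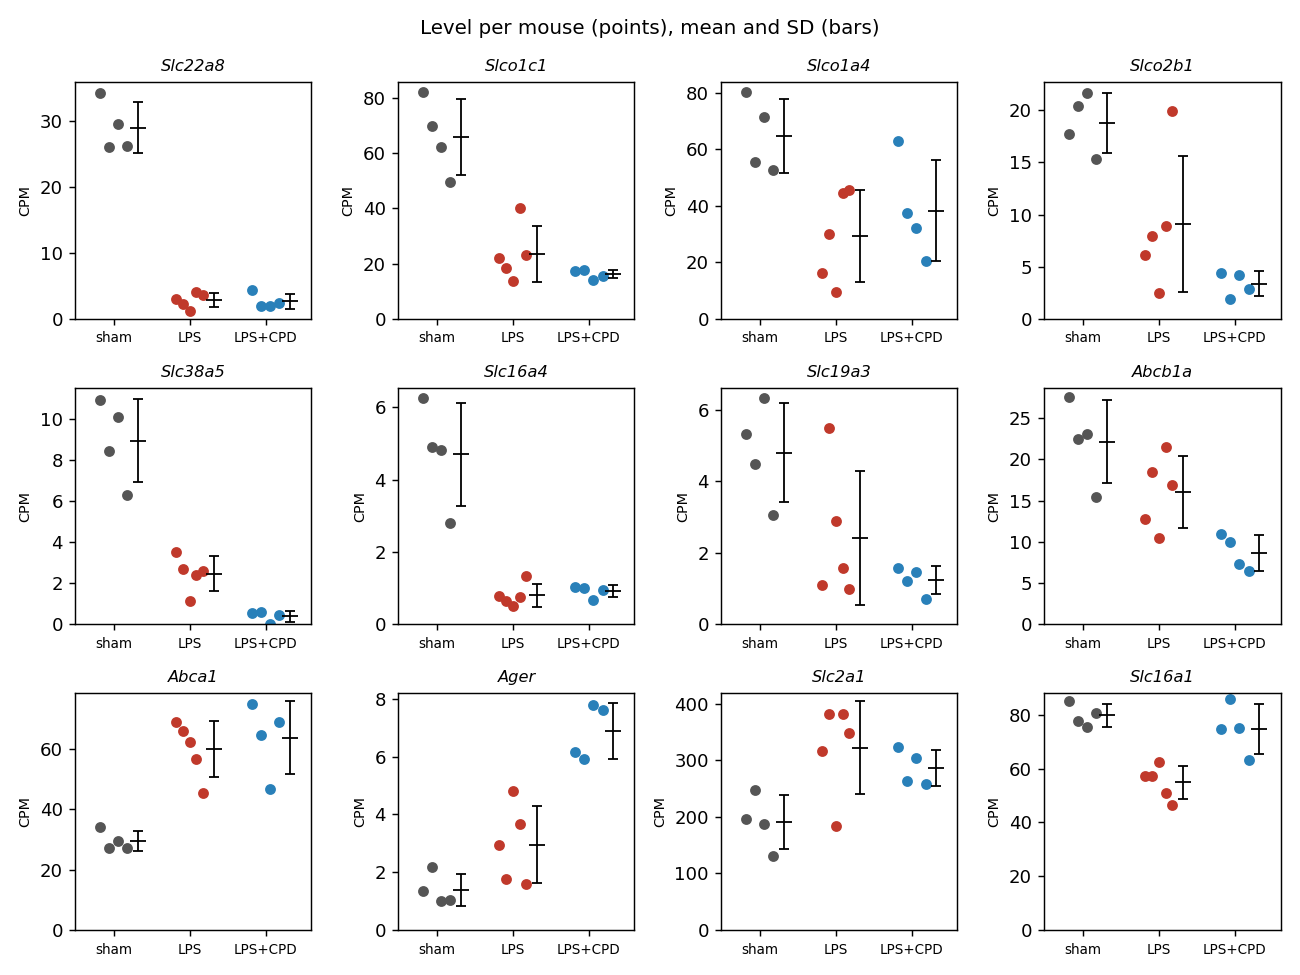
CPM of 12 members in each mouse (points) with the group mean and SD (bars), each panel starting at 0, where LPS+CPD stands for LPS-CPD-4645. *Slc22a8*, *Slco1c1*, *Slco1a4*, *Slc38a5* and *Slc16a4* are lower after LPS than in sham, *Slc38a5* is lower again with CPD-4645 to no more than 0.595 CPM, *Abca1* and *Ager* are higher, and *Slc16a1* is at 63.1 to 86 CPM in LPS-CPD-4645 mice, above the LPS-vehicle mice at 46.6 to 62.4 CPM.

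Among the 3 glucose and monocarboxylate carriers 1 rose and 2 fell after LPS, beside 11.1% and 8.86% of all genes. *Slc2a1*, the main glucose carrier of the barrier, had 196, 247, 188 and 130 CPM in sham-vehicle mice, 316, 382, 183, 382 and 349 CPM in the LPS-vehicle group, and 323, 263, 304 and 258 CPM in LPS-CPD-4645 mice. All LPS mice were above the highest sham mouse except LPS-vehicle mouse 3, which lay within the sham range. The rise after LPS was 1.70-fold (log2 fold change 0.76, SE 0.18, edgeR adjusted p = 0.0066). With CPD-4645 it was 1.51-fold (log2 fold change 0.59, SE 0.19, edgeR adjusted p = 0.021), and this call was lost without sham-vehicle mouse 4 (adjusted p = 0.067) or LPS-CPD-4645 mouse 1 (adjusted p = 0.054). Between the LPS groups the difference was -0.17 with a 95% interval from -0.55 to 0.21. Scaled to endothelial markers, the *Slc2a1* difference after LPS was 0.62 (edgeR adjusted p = 0.16). *Slc2a1* shares exon bases with the antisense gene *Gm12868*.

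*Slc16a1*, the carrier of lactate, pyruvate and ketone bodies known as MCT1, was lower after LPS and not after LPS with CPD-4645. Sham-vehicle mice had 79.8 ± 4.23 CPM (SD, n = 4), LPS-vehicle mice 54.8 ± 6.15 CPM (SD, n = 5) and LPS-CPD-4645 mice 74.6 ± 9.35 CPM (SD, n = 4). It fell after LPS by 0.55 on the log2 scale (SE 0.10, edgeR adjusted p = 5e-04) and rose by 0.45 with CPD-4645 against LPS-vehicle (SE 0.10, edgeR adjusted p = 0.0021). The difference between LPS-CPD-4645 and sham-vehicle mice was -0.10, with a 95% interval from -0.31 to 0.12. Under endothelial marker scaling these differences were -0.59 and 0.64 and were not called (adjusted p = 0.25 and 0.13).

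*Slc16a4*, a less studied member of the monocarboxylate family, was low in every LPS mouse. Its CPM were 6.25, 4.91, 4.82 and 2.81 in sham-vehicle mice, 0.790, 0.646, 0.504, 0.767 and 1.34 in the LPS-vehicle group, and 1.03, 1.01, 0.678 and 0.942 in LPS-CPD-4645 mice. No LPS mouse reached the lowest sham mouse, and the LPS groups overlapped. The fall was 5.62-fold after LPS (log2 fold change -2.49, SE 0.31, edgeR adjusted p = 1.3e-05) and 5.16-fold with CPD-4645 (log2 fold change -2.37, SE 0.34, edgeR adjusted p = 2.9e-05). The LPS groups differed by 0.12, with a 95% interval from -0.57 to 0.82. Counts in the LPS-vehicle libraries were 4 to 45, so counting error contributes to its spread.

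Of the 8 amino acid carriers, 5 fell and 1 rose after LPS, beside 8.86% and 11.1% of all genes. With CPD-4645 against LPS-vehicle 3 fell and 2 rose, beside 16.4% and 14.1% of all genes, and against sham 4 fell and 2 rose, beside 19.3% and 19.5%. The carriers of system N, which move glutamine and histidine, and the glycine carrier were lower in both LPS groups.

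*Slc38a5* encodes SNAT5, a sodium-coupled carrier of system N, and had the largest change of any member in both comparisons of LPS-CPD-4645 mice. Its CPM were 10.9, 8.45, 10.1 and 6.32 in sham-vehicle mice, 3.54, 2.71, 1.13, 2.41 and 2.59 in the LPS-vehicle group, and 0.553, 0.595, 0 and 0.432 in LPS-CPD-4645 mice. The 3 groups did not overlap, with sham highest and LPS-CPD-4645 lowest. It fell 3.50-fold after LPS (log2 fold change -1.81, SE 0.37, edgeR adjusted p = 0.0018). From LPS-vehicle to LPS-CPD-4645 mice it fell a further 6.66-fold (log2 fold change -2.74, SE 0.47, edgeR adjusted p = 0.00039), and it was 23.3-fold below sham (log2 fold change -4.54, SE 0.49, edgeR adjusted p = 1.7e-06). The LPS-CPD-4645 libraries held only 0 to 17 counts of *Slc38a5*, and the count of 0 in mouse 3 allows up to 0.115 CPM at 3 counts, for counting error only. By limma-voom these 2 differences were larger, at -3.61 and -5.39 on the log2 scale, and without LPS-CPD-4645 mouse 3 they were smaller, at -2.27 and -4.07, so the size of the fold is uncertain although every alternative called it.

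*Slc38a3*, which encodes the system N carrier SNAT3, changed by less in the same directions. It averaged 90.6 ± 7.80 CPM (SD, n = 4) in sham-vehicle, 60.8 ± 6.20 CPM (SD, n = 5) in LPS-vehicle and 46.2 ± 3.50 CPM (SD, n = 4) in LPS-CPD-4645 mice. The log2 fold changes were -0.57 after LPS (SE 0.09, edgeR adjusted p = 0.00014), -0.40 with CPD-4645 against LPS-vehicle (SE 0.09, adjusted p = 0.0029) and -0.97 against sham (SE 0.10, adjusted p = 6.1e-07). *Slc6a9*, the glycine carrier GLYT1, had 90.5, 85.1, 109 and 92.9 CPM in sham-vehicle mice, 54.3, 78.7, 58.1, 57.1 and 56.4 CPM in the LPS-vehicle group, and 44.4, 40.0, 49.3 and 52.7 CPM in LPS-CPD-4645 mice. Here too each LPS mouse was below every sham mouse, and LPS-vehicle mouse 2 stood above the rest of its group. *Slc6a9* was 1.54-fold lower after LPS (log2 fold change -0.63, SE 0.11, edgeR adjusted p = 0.00059) and 2.02-fold lower after LPS with CPD-4645 (log2 fold change -1.02, SE 0.12, adjusted p = 4.8e-06). Its difference between the LPS groups was -0.39 (SE 0.12, edgeR adjusted p = 0.016), and this call was lost without LPS-CPD-4645 mouse 2 (adjusted p = 0.07). *Slc6a9* shares exon bases with *Ccdc24* and *Gm17114* on the other strand. Under endothelial marker scaling the differences of *Slc38a3* and *Slc6a9* after LPS were -0.67 and -0.72 and were not called (adjusted p = 0.1 and 0.098). Between the LPS groups they were -0.14 and -0.13 (adjusted p = 0.75 and 0.79).

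*Slc7a5* and *Slc3a2* form LAT1, the heterodimer that carries large neutral amino acids, thyroid hormones and L-DOPA. *Slc7a5*, the light chain, averaged 72.5 ± 4.20 CPM (SD, n = 4) in sham-vehicle, 43.3 ± 9.78 CPM (SD, n = 5) in LPS-vehicle and 52.3 ± 4.59 CPM (SD, n = 4) in LPS-CPD-4645 mice. It fell by 0.73 on the log2 scale after LPS (SE 0.13, edgeR adjusted p = 4e-04) and was below sham with CPD-4645 (log2 fold change -0.47, SE 0.13, adjusted p = 0.0095), a call lost under endothelial marker scaling (-0.31, adjusted p = 0.48). Between the LPS groups it differed by 0.26 (95% interval -0.01 to 0.53), and by 0.37 without LPS-vehicle mouse 2 (edgeR adjusted p = 0.024). *Slc3a2*, the heavy chain, had 125, 152, 129 and 107 CPM in sham-vehicle mice, 159, 167, 126, 126 and 149 CPM in the LPS-vehicle group, and 181, 189, 184 and 162 CPM in LPS-CPD-4645 mice. LPS-CPD-4645 mice were above every sham mouse, while LPS-vehicle mice overlapped with sham. *Slc3a2* was 1.39-fold higher with CPD-4645 than in sham (log2 fold change 0.48, SE 0.11, edgeR adjusted p = 0.0023). Its rise over LPS-vehicle mice was 0.30 (SE 0.10, edgeR adjusted p = 0.039) and was lost without any of LPS-vehicle mice 3, 4 and 5 or LPS-CPD-4645 mice 1, 2 and 3 (adjusted p from 0.054 to 0.11), and without the 2 shallowest libraries (adjusted p = 0.13). Under endothelial marker scaling the *Slc3a2* differences from sham and from LPS-vehicle mice were 0.64 and 0.55 and were not called (adjusted p = 0.1 and 0.17).

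*Slc7a1*, the cationic carrier CAT1 for arginine and lysine, averaged 47.4 ± 4.54 CPM (SD, n = 4) in sham-vehicle, 34.6 ± 4.70 CPM (SD, n = 5) in LPS-vehicle and 47.2 ± 2.51 CPM (SD, n = 4) in LPS-CPD-4645 mice. It fell by 0.45 after LPS (SE 0.10, edgeR adjusted p = 0.0032) and was 0.44 higher with CPD-4645 than without (SE 0.10, adjusted p = 0.0028), and its difference from sham under CPD-4645 was -0.01, with a 95% interval from -0.23 to 0.21. Scaled to endothelial markers, these *Slc7a1* differences were -0.55 and 0.72 and were not called (adjusted p = 0.24 and 0.062). *Slc38a2*, the system A carrier SNAT2, rose instead. It averaged 167 ± 16.8 CPM (SD, n = 4) in sham-vehicle, 221 ± 33.1 CPM (SD, n = 5) in LPS-vehicle and 236 ± 38.5 CPM (SD, n = 4) in LPS-CPD-4645 mice. The rise after LPS was 0.41 (SE 0.12, edgeR adjusted p = 0.02), lost without sham-vehicle mouse 2 (0.065) or LPS-vehicle mouse 4 (0.054), and that with CPD-4645 over sham was 0.50 (SE 0.12, adjusted p = 0.004). Under endothelial marker scaling the *Slc38a2* differences were 0.29 and 0.64 and were not called (adjusted p = 0.72 and 0.11). *Slc6a6*, the taurine carrier, had no call in any comparison, with log2 fold changes of -0.26, 0.22 and -0.04 (after LPS, between the LPS groups, and LPS with CPD-4645 against sham, the order used below), and passed after LPS without LPS-vehicle mouse 2 (-0.32, adjusted p = 0.043) and by voomWithQualityWeights (-0.29, adjusted p = 0.043).

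By edgeR none of the 4 vitamin carriers was called after LPS, where 8.86% of all genes were lower and 11.1% higher, while 2 were lower and 1 higher in LPS-CPD-4645 than in sham-vehicle mice, beside 19.3% and 19.5% of all genes. *Slc5a6* encodes the sodium-dependent carrier of biotin and pantothenate, and its CPM were 33.0, 37.7, 33.9 and 27.9 in sham-vehicle mice, 33.7, 34.5, 26.1, 30.5 and 29.4 in the LPS-vehicle group, and 23.4, 19.1, 20.1 and 20 in LPS-CPD-4645 mice. Each LPS-CPD-4645 mouse was below all mice of the other groups, which overlapped with each other. *Slc5a6* fell 1.5-fold from LPS-vehicle (log2 fold change -0.59, SE 0.11, edgeR adjusted p = 8e-04) and 1.61-fold from sham (log2 fold change -0.69, SE 0.12, adjusted p = 0.00017). Under endothelial marker scaling the differences were -0.31 and -0.52 and were not called (adjusted p = 0.43 and 0.18). Exons of *Slc5a6* overlap *Atraid* on the other strand.

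*Slc19a3*, one of the thiamine carriers, had 5.33, 4.50, 6.33 and 3.06 CPM in sham-vehicle mice, 1.10, 5.49, 2.90, 1.59 and 0.984 CPM in the LPS-vehicle group, and 1.58, 1.22, 1.47 and 0.706 CPM in LPS-CPD-4645 mice. LPS-vehicle mouse 2 lay within the sham range and the other LPS mice below it. The difference after LPS was -0.99 (SE 0.42, edgeR adjusted p = 0.11), and without LPS-vehicle mouse 2 it was -1.66 (adjusted p = 0.0037). It was called by limma-voom (-1.19, adjusted p = 0.04) and by voomWithQualityWeights (-1.40, adjusted p = 0.011). Between the LPS groups it differed by -0.98 (edgeR adjusted p = 0.12), and by -1.10 with the replicate number as a block (adjusted p = 0.05). Over the alternatives this difference between the LPS groups ran from -1.19 to -0.31. With CPD-4645 the level was 3.92-fold below sham (log2 fold change -1.97, SE 0.47, edgeR adjusted p = 0.0031). The other thiamine carrier, *Slc19a2*, was 0.31 higher than sham under CPD-4645 (SE 0.11, edgeR adjusted p = 0.035), and this call was lost without any 1 of the 4 sham-vehicle mice or LPS-CPD-4645 mice 1, 2 and 4 (adjusted p from 0.051 to 0.098). With endothelial marker scaling the *Slc19a2* difference was 0.47 (edgeR adjusted p = 0.29), and with the replicate number as a block 0.31 (adjusted p = 0.053). It was also not called with no filter on low counts or without the 2 shallowest libraries (adjusted p = 0.075 in both). *Slc52a3*, a riboflavin carrier of 3.80 CPM in sham-vehicle mice, had no call by edgeR, with log2 fold changes of 0.56, -0.19 and 0.37, and was called after LPS by voomWithQualityWeights (0.74, adjusted p = 0.031).

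By edgeR the 3 metal carriers had no call after LPS. *Slc39a10*, the zinc importer ZIP10, had 152, 117, 145 and 140 CPM in sham-vehicle mice, 112, 103, 104, 114 and 183 CPM in the LPS-vehicle group, and 104, 75, 54 and 64 CPM in LPS-CPD-4645 mice. LPS-vehicle mouse 5 exceeded every other mouse, whereas the LPS-CPD-4645 mice were all below sham. *Slc39a10* fell 1.67-fold from LPS-vehicle to LPS-CPD-4645 mice (log2 fold change -0.74, SE 0.18, edgeR adjusted p = 0.0046) and was 1.88-fold below sham (log2 fold change -0.91, SE 0.19, adjusted p = 0.00092), calls lost under endothelial marker scaling (-0.49 and -0.77, adjusted p = 0.25 and 0.056). *Slc30a1*, the zinc exporter ZnT1, moved the other way and was 0.47 higher with CPD-4645 than in LPS-vehicle mice (SE 0.10, edgeR adjusted p = 0.0015). It averaged 47.6 ± 1.03 CPM (SD, n = 4) in sham-vehicle, 39.3 ± 6.03 CPM (SD, n = 5) in LPS-vehicle and 55.0 ± 2.07 CPM (SD, n = 4) in LPS-CPD-4645 mice, and it shares exon bases with *1700034H15Rik* on the other strand. Its difference after LPS was -0.26 (SE 0.10, edgeR adjusted p = 0.064). That difference was called in DESeq2 (adjusted p = 0.049), by voomWithQualityWeights (adjusted p = 0.04) and without LPS-vehicle mouse 1 (adjusted p = 0.049) or mouse 4 (adjusted p = 0.047). Under CPD-4645 *Slc30a1* differed from sham by 0.21 (edgeR adjusted p = 0.12) and was called with only the groups compared (adjusted p = 0.038), without the 2 shallowest libraries (adjusted p = 0.048) and without LPS-vehicle mouse 3 (adjusted p = 0.037). *Slc39a8*, the zinc and manganese importer ZIP8, differed by -0.45, 0.67 and 0.22 with no call. Its difference between the LPS groups ran from 0.37 to 1.0 over the alternatives. It passed in DESeq2 (adjusted p = 0.038), by voomWithQualityWeights (adjusted p = 0.044), under endothelial marker scaling (adjusted p = 0.027) and without LPS-CPD-4645 mouse 3 (0.82, adjusted p = 0.033) or sham-vehicle mouse 2 (0.68, adjusted p = 0.046).

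*Slc12a2* encodes the sodium, potassium and chloride cotransporter NKCC1, which takes part in fluid secretion. Its CPM were 161, 175, 159 and 204 in sham-vehicle mice, 131, 121, 121, 129 and 97.7 in the LPS-vehicle group, and 147, 179, 159 and 187 in LPS-CPD-4645 mice. Values of the LPS-vehicle group were below all other mice, and the other groups overlapped. It fell 1.46-fold after LPS (log2 fold change -0.54, SE 0.10, edgeR adjusted p = 0.00077) and was 1.40-fold higher with CPD-4645 than without (log2 fold change 0.48, SE 0.10, adjusted p = 0.0016). The difference from sham under CPD-4645 was -0.06, with a 95% interval from -0.28 to 0.16, and with endothelial marker scaling the other differences were -0.64 and 0.72 and were not called (adjusted p = 0.22 and 0.098). *Slc29a1*, the equilibrative nucleoside carrier ENT1, had no call, with log2 fold changes of -0.02, -0.16 and -0.17.

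Of the 5 ABC pumps, *Abca1* alone was called after LPS, where 11.1% of all genes were higher, and *Abcb1a* alone between the LPS groups, where 16.4% were lower, so neither count is a result about the class. *Abcb1a* encodes P-glycoprotein, the drug efflux pump of the luminal endothelial membrane, and its CPM were 27.6, 22.4, 23.1 and 15.4 in sham-vehicle mice, 12.8, 18.5, 10.5, 21.5 and 16.9 in the LPS-vehicle group, and 11, 9.93, 7.26 and 6.48 in LPS-CPD-4645 mice. LPS-CPD-4645 mice were all below sham, and only the highest of them overlapped with the lowest LPS-vehicle mouse. The difference after LPS was -0.45 (SE 0.21, edgeR adjusted p = 0.14). *Abcb1a* fell 1.89-fold from LPS-vehicle to LPS-CPD-4645 mice (log2 fold change -0.92, SE 0.22, edgeR adjusted p = 0.0039) and was 2.57-fold below sham (log2 fold change -1.36, SE 0.23, adjusted p = 0.00013). The first of these calls was lost under endothelial marker scaling (-0.60, adjusted p = 0.12). Reads that match both *Abcb1a* and its paralog *Abcb1b* could be missing from the counts, and exons of *Abcb1a* overlap *Gm42686* on the other strand.

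*Abca1*, which exports cholesterol to apolipoproteins, had 34.0, 27.2, 29.6 and 27.0 CPM in sham-vehicle mice, 68.9, 66.0, 62.3, 56.8 and 45.5 CPM in the LPS-vehicle group, and 75, 64.5, 46.7 and 69 CPM in LPS-CPD-4645 mice. Every LPS mouse exceeded every sham mouse, and the LPS groups overlapped. The rise was 2.03-fold after LPS (log2 fold change 1.02, SE 0.14, edgeR adjusted p = 3e-05) and 2.16-fold with CPD-4645 (log2 fold change 1.11, SE 0.14, adjusted p = 1.1e-05). The difference between the LPS groups was 0.09, with a 95% interval from -0.19 to 0.37. *Abcg2*, the breast cancer resistance protein and the other main drug pump of the barrier, had no call at -0.36, 0.23 and -0.13, and passed after LPS without sham-vehicle mouse 4 (-0.49, adjusted p = 0.043). Neither did the pumps of organic anions and conjugates, *Abcc1* at 0.30, -0.16 and 0.14 and *Abcc4* at -0.52, 0.01 and -0.51. Against sham under CPD-4645, *Abcc4* was called by limma-voom (adjusted p = 0.025), DESeq2 (0.045), voomWithQualityWeights (0.022), the replicate block (0.047), with only the groups compared (0.045), and without the 2 shallowest libraries (0.02), LPS-vehicle mouse 3 (0.03) or sham-vehicle mouse 4 (0.047). After LPS, *Abcc4* was called by DESeq2 (adjusted p = 0.044), voomWithQualityWeights (0.035) and the replicate block (0.044).

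Among the 4 receptors *Ager* and *Insr* were called higher after LPS, beside 11.1% of all genes, and each call was lost under some of the alternatives given below. *Ager* encodes RAGE, the receptor for advanced glycation end products, which also carries amyloid-beta inwards. Its CPM were 1.34, 2.17, 0.996 and 1.04 in sham-vehicle mice, 2.95, 1.76, 4.79, 3.67 and 1.58 in the LPS-vehicle group, and 6.17, 5.91, 7.79 and 7.61 in LPS-CPD-4645 mice. LPS-CPD-4645 mice were above all others, while LPS-vehicle mice 2 and 5 lay within the sham range. *Ager* was 2.04-fold higher after LPS (log2 fold change 1.03, SE 0.33, edgeR adjusted p = 0.034). That call was lost in limma-voom (adjusted p = 0.13), under endothelial marker scaling, where the difference was also 1.03 (adjusted p = 0.14), with only the groups compared (adjusted p = 0.07), without the 2 shallowest libraries (adjusted p = 0.084) and without any 1 of sham-vehicle mice 1, 3 and 4 or LPS-vehicle mice 1, 3 and 4 (adjusted p from 0.062 to 0.11). It was 2.43-fold higher with CPD-4645 than in LPS-vehicle mice (log2 fold change 1.28, SE 0.31, edgeR adjusted p = 0.0043) and 4.94-fold above sham (log2 fold change 2.30, SE 0.34, adjusted p = 4.3e-05), and none of the alternatives ended these 2 calls.

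*Lrp1*, the lipoprotein receptor that clears amyloid-beta, had 245, 261, 278 and 225 CPM in sham-vehicle mice, 286, 320, 282, 243 and 296 CPM in the LPS-vehicle group, and 247, 295, 289 and 255 CPM in LPS-CPD-4645 mice. The 3 groups overlapped, and the log2 differences were 0.18 (95% interval -0.01 to 0.37), -0.07 (-0.26 to 0.12) and 0.11 (-0.09 to 0.31) with no call. *Insr*, the insulin receptor, rose by 0.31 after LPS (SE 0.08, edgeR adjusted p = 0.012), from 42.2 ± 3.19 CPM (SD, n = 4) to 52.3 ± 4.15 CPM (SD, n = 5). With CPD-4645 it stood at 48.3 ± 1.32 CPM (SD, n = 4), 0.19 above sham with no call, and 0.25 above it without sham-vehicle mouse 1 (edgeR adjusted p = 0.046). Its rise after LPS was 0.24 and not called under endothelial marker scaling (adjusted p = 0.78). *Lrp8*, a receptor for reelin and apolipoprotein E, was at 12.5 ± 1.03 CPM (SD, n = 4) in sham-vehicle and 12.1 ± 0.712 CPM (SD, n = 5) in LPS-vehicle mice. It reached 16.3 ± 1.17 CPM (SD, n = 4) with CPD-4645, a rise of 0.44 over LPS-vehicle (SE 0.11, edgeR adjusted p = 0.0076) and of 0.39 over sham (SE 0.12, adjusted p = 0.017). Under endothelial marker scaling the *Lrp8* differences were 0.69 and 0.55 and were not called (adjusted p = 0.09 and 0.18), and with no filter on low counts the rise over sham was not called (0.38, adjusted p = 0.062).

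A further 54 carriers, pumps and receptors were listed as the surroundings of the members, and 51 were tested. After LPS 8 rose and 4 fell, beside 11.1% and 8.86% of all genes. The largest rises were those of the metal importer *Slc39a14* (log2 fold change 1.30, SE 0.15), the neutral amino acid carrier *Slc1a5* (1.12, SE 0.21) and the lipid carrier *Mfsd2a* (1.02, SE 0.14). The iron exporter *Slc40a1* (-2.23, SE 0.22), the immunoglobulin receptor *Fcgrt* (-0.76, SE 0.20) and the choline carrier *Slc44a1* (-0.30, SE 0.10) had the largest falls at a mean of at least 1 CPM. With CPD-4645 against LPS-vehicle 5 of the 51 rose and 10 fell, beside 14.1% and 16.4% of all genes. The largest rises were those of the ascorbate carrier *Slc23a2* (0.47, SE 0.09) and the amino acid carriers *Slc7a8* (0.39, SE 0.14) and *Slc7a6* (0.36, SE 0.09). The largest falls were those of the ABC pump *Abcc3* (-1.32, SE 0.33), the proline carrier *Slc6a20a* (-1.01, SE 0.23) and the cobalamin receptor *Cd320* (-1.01, SE 0.14).

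In LPS-CPD-4645 mice against sham, 12 of the 51 were higher and 13 lower, beside 19.5% and 19.3% of all genes. *Abcb1b*, the paralog of *Abcb1a*, was 4-fold higher (log2 fold change 2.00, SE 0.49, edgeR adjusted p = 0.0033), while *Abcb1a* was lower. *Slc40a1* remained 2.17 below sham on the log2 scale (log2 fold change -2.17, SE 0.24, edgeR adjusted p = 2e-06), and *Slc1a5* was 1.47 above it (SE 0.22, adjusted p = 5.4e-05). The folate carrier *Slc46a1* was lower by 1.19 (log2 fold change -1.19, SE 0.19, edgeR adjusted p = 8.5e-05). *Abcc3* was lower by 1.42 (log2 fold change -1.42, SE 0.34, edgeR adjusted p = 0.0032). *Slc6a12*, a carrier of betaine and GABA, was 2.80-fold higher (log2 fold change 1.49, SE 0.44, edgeR adjusted p = 0.012).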

How the data were processed

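Counts per gene were deposited by the authors, who aligned single-end reads of stranded polyA libraries to GRCm38 with STAR 2.5.2a and counted them on the GENCODE M9 basic annotation, without normalization. The strand column was not given in the sources used here. Symbols, positions and exon lengths came from GENCODE M21 basic (47224 of 47643 identifiers matched).

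Genes were kept by filterByExpr (minimum count 10, minimum total 15), normalized by TMM and fitted with edgeR 4.0.16 (R 4.3.3), quasi-likelihood, with the 13 libraries in 1 fit and Benjamini-Hochberg adjustment. Calls needed an adjusted p of at most 0.05, and 2-fold changes, the study's further criterion, were counted beside them. CPM used TMM-scaled library sizes, log2 CPM a prior count of 2, and intervals are 95%. The pipeline was also run on simulated counts with the same relative spread for every gene, a simpler setting than these data. All p-values weigh a difference between groups against the spread between these mice.

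Members, gene lists and marker lists were chosen with earlier results of these data known. Values in each mouse are given for members called with a 2-fold change and for the leading member per kb of each class in sham, and other members by group. Of the other transporters, the 3 largest called rises and falls per comparison with a mean of at least 1 CPM are named with their log2 fold changes. Alternatives were limma-voom 3.58.1, DESeq2 1.42.0, voomWithQualityWeights, DESeq2 size factors, endothelial marker scaling, 2 other filters, only the groups compared, a replicate block and each library left out. Leaving out the 2 shallowest libraries was chosen after seeing the data. Plots were drawn with matplotlib 3.10.9.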

Additional observations from a re-analysis of the deposited data

Results flagged for a closer look

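In 7 of 99 combinations of member and group, 1 mouse lay far from the rest of its group by Dixon's criterion, and chance flags a small share of groups in this way. LPS-vehicle mouse 2 was high for *Slc7a1* at 42.6 CPM, where the other LPS-vehicle mice had 30.2 to 33.6 CPM. It was also high for *Slc6a9* at 78.7 CPM (others 54.3 to 58.1 CPM) and low for *Lrp8* at 10.8 CPM (others 12.1 to 12.6 CPM). LPS-vehicle mouse 5 was high for *Slc39a10* at 183 CPM (others 103 to 114 CPM), and LPS-vehicle mouse 3 was low for *Abcc4* at 4.92 CPM (others 8.86 to 10.2 CPM). *Slc52a3* was high in sham-vehicle mouse 2 at 5.51 CPM (others 3.08 to 3.47 CPM). *Slc22a8* was high in LPS-CPD-4645 mouse 1 at 4.35 CPM (others 1.96 to 2.35 CPM).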

How the results depend on the processing

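Of 49 called member results, 21 kept their call under all 23 alternatives and 41 under all but endothelial marker scaling, and none reversed. Under that scaling members higher after LPS numbered 1 and lower 7, higher with CPD-4645 than without 3 and lower 2, and higher than sham under CPD-4645 3. Of the 26 member calls it ended, 15 had a log2 fold change at least as large as reported, and calls over all genes also became fewer (after LPS from 1915 higher and 1531 lower to 726 and 335). The cause was not tested. The calls lost elsewhere were those of *Ager*, *Slc38a2* and *Slco1a4* after LPS, *Slc3a2* and *Slc6a9* between the LPS groups, and *Lrp8*, *Slc19a2* and *Slc2a1* against sham under CPD-4645. With each library left out, members higher after LPS ran from 3 (without LPS-vehicle mouse 4) to 5 and lower from 10 to 13. Those 2-fold higher ran from 0 (without LPS-vehicle mouse 1 or sham-vehicle mouse 4) to 2, and were also 0 by limma-voom, by voomWithQualityWeights and under endothelial marker scaling, against 2 (*Abca1* and *Ager*, both close to 2-fold) as reported. With CPD-4645 against LPS-vehicle the ranges were 6 to 8 higher and 6 to 8 lower, and against sham 5 to 8 higher and 12 to 14 lower. A fit with the replicate number as a block gave 5 higher and 13 lower after LPS, 7 and 8 between the LPS groups, and 6 and 13 against sham. The numbers did not pair the mice, as correlations of same-numbered mice ran from -0.0346 to 0.114 over 12 pairs. Without the 2 shallowest libraries 9 members were lower with CPD-4645 than without. The lowest counts in any library were 0 for *Slc38a5*, 4 for *Slc16a4*, 10 for *Slc22a8*, 17 for *Slc39a8*, 18 for *Slc19a3*, 20 for *Slco2b1*, 21 for *Ager* and 22 for *Slc52a3*, so counting error is largest for these.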

Other observations

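The other marker lists gave the following calls after LPS. Of 10 astrocyte markers 5 rose and 0 fell, *Gfap* among them (log2 fold change 2.40), and 3 stayed higher than sham under CPD-4645. Oligodendrocyte markers fell in 6 of 10 and rose in 1, neuronal markers fell in 4 of 10, microglial markers in 5 of 10 and pericyte and smooth muscle markers in 4 of 12 with 1 higher. Fibroblast and leptomeningeal markers fell in 5 of 10 and rose in 2, while their summed CPM was 639 to 917 in sham-vehicle and 911 to 1830 in LPS-vehicle mice. *Ptgds* made up most of that sum, at 507 to 775 CPM in sham-vehicle and 783 to 1690 CPM in LPS-vehicle mice. Monocyte and macrophage markers rose in 7 of 8 tested, and erythrocyte markers fell in 4 of 4 tested. Under CPD-4645 9 of 10 microglial and 8 of 12 pericyte and smooth muscle markers were lower than in sham-vehicle mice.

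Motif letters were searched on both strands of the 200-base windows. The SOX letters ATTGTT stood in 3 of 26 members (8.6% of 27025 genes with a window), the TCF/LEF letters CTTTGA in 7 of 26 (12.6% of genes), the E-box CACGTG in 5 of 26 (6.0% of genes) and the kappa B motif in 3 of 26 (6.9% of genes). Several of these members had more than 1 window, which gives them more sequence to match. The E-box windows of *Abca1* and *Slc16a1* lay outside the GENCODE gene, those of *Slc38a5* and *Slc39a8* overlapped an exon of it, and that of *Slc29a1* was intronic.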
